A study of Homo sapiens with 12 samples.

Results

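Cells make cholesterol and fatty acids from acetyl-CoA, and 30 genes of these pathways were followed in K562 cells, a human erythroleukemia line with the fusion kinase BCR-ABL1. The members were chosen by name: 4 regulators of the SREBP transcription factors, 6 enzymes of the mevalonate steps, 11 enzymes from squalene to cholesterol, the sterol carrier gene STARD4 and 8 genes of fatty acid synthesis. All 30 were found once each among the 58735 genes of the count table, and all 30 were among the 20821 genes that passed the filter on low counts. RNA was sequenced from 4 groups of 3 biological replicates, all of the same line. Mock DMSO cells received the vehicle and no hemin, mock nilotinib cells received 0.1 μM nilotinib and no hemin, hemin DMSO cells received the vehicle and 50 μM hemin for 24 h, and hemin nilotinib cells received 0.1 μM nilotinib before 50 μM hemin for 24 h. Nilotinib inhibits the kinase of BCR-ABL1, and hemin induces K562 cells to make hemoglobin. By the sampling times in the study's methods, mock nilotinib cells had 24 h less of nilotinib than hemin nilotinib cells, whereas the drawn scheme gives both the same time. Under the first timing, the effect of hemin and the passage of 24 h cannot be told apart. A difference between the responses to nilotinib with and without hemin likewise cannot be told apart from the longer time in nilotinib.

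When membrane sterols are low, SCAP carries the SREBP proteins from the endoplasmic reticulum to the Golgi, where they are cut and released to enter the nucleus and switch on genes of sterol and fatty acid synthesis. When sterols are plentiful, INSIG1 holds the SCAP-SREBP complex back. SREBF2 encodes the factor that acts mainly on cholesterol genes and SREBF1 the one best known for fatty acid genes, and many promoters of these genes carry sites for the partner factors NF-Y, which binds CCAAT, and SP1, which binds GC boxes.

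The promoters were read from RefSeq (GRCh38.p14) for 27 of the 30 members, with 37 promoters in all. FASN, SQLE and FDFT1 had no entry. In the 250 bases before the start, on either strand, CCAAT was present in 24 of the 37 promoters (64.9%, against 32% of all 35116 promoters), GGGCGG in 33 (89.2%, against 42.6%) and the sterol regulatory element TCACNCCAC in 1 (2.7%, against 0.883%). None of the 3 motifs contains another, and a match is a description of the sequence only. CCAAT was held by 5 of 6 matched mevalonate genes, 8 of 9 matched sterol genes, STARD4, 2 of 4 regulators and 4 of 7 matched fatty acid genes. In these counts a gene holds CCAAT if any of its promoters does. The 32% above is per promoter, and no share per gene was taken over all genes. The stretches from 160 to 21 bases before the start are shown for MVK, MSMO1, SREBF1 and SREBF2. The first 3 were the members whose response to nilotinib differed most between hemin and mock cells. SREBF2 was the only matched member with the string TCACNCCAC in the 250 bases, and sites that depart from this string were not searched. Matches of all 3 motifs are in capitals, as ATTGG or CCGCCC where the match is on the other strand. MVK lies at chr12:109573634-109573773 (+ strand), MSMO1 at chr4:165327509-165327648 (+ strand), SREBF1 at chr17:17837007-17837146 (- strand) and SREBF2 at chr22:41832945-41833084 (+ strand).
MVK: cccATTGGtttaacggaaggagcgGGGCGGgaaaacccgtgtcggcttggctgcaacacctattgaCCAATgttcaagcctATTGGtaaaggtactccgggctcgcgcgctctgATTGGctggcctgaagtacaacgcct
MSMO1: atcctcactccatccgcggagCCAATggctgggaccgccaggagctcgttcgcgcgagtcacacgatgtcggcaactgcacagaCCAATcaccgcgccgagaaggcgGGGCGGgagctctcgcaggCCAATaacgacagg
SREBF1: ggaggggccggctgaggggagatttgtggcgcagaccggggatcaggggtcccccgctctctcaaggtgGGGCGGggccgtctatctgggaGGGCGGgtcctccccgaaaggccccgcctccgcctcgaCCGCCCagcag
SREBF2: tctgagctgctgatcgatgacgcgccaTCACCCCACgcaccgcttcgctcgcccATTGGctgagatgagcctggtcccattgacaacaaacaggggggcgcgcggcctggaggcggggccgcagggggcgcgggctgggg
The MVK stretch held 4 CCAAT matches and the MSMO1 stretch 3, with 1 GC box each. The SREBF1 stretch held 3 GC boxes and no CCAAT, and the SREBF2 stretch held 1 sterol regulatory element and 1 CCAAT.

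The libraries held 33457078 to 50506990 counts, with the mock DMSO libraries the deepest at 40418880 to 50506990. Levels are given as counts per 1000000 counts (CPM) after TMM scaling, which are relative to the other RNA of the cells, so in these bulk samples fewer cells of a type and less RNA per cell cannot be told apart. All 11 K562 markers were detected in every library, with HBE1 the lowest at 0.549 to 2.92 CPM, and their summed level was 1515 to 2473 CPM in mock DMSO, 9626 to 11282 in mock nilotinib, 1165 to 1398 in hemin DMSO and 8044 to 16229 in hemin nilotinib. The 17 markers of other cell types summed to 120 to 151 CPM in mock DMSO, 59.8 to 76.9 in mock nilotinib, 125 to 177 in hemin DMSO and 51.9 to 64.3 in hemin nilotinib, with the endothelial gene CDH5 at 0 throughout and the epithelial gene EPCAM the highest by group mean at 32.6 to 63.1. Both marker sums moved with nilotinib, and their part in the results below was not tested.

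In some groups 1 library was the highest for most members. Hemin DMSO replicate 2 had the highest level of its group for 27 of the 30 members, against 35.3% of all genes tested, and mock nilotinib replicate 3 for 25 of the 30, against 34% of all genes. Hemin nilotinib replicate 1 was the highest of its group for 19 members (37.2% of all genes), and in mock DMSO the highest values were split 13, 7 and 10 over the 3 replicates. Hemin DMSO replicate 1 was the lowest of its group for 23 members (34.6% of all genes), and mock nilotinib replicate 1 for 21 (38.8% of all genes). The summed FPKM (a level scaled by gene length and by library) of the members was 1030 ± 26.2 (SD, n = 3) in mock DMSO, 725 ± 121 in mock nilotinib, 584 ± 143 in hemin DMSO and 771 ± 63.6 in hemin nilotinib. In hemin DMSO the sum ranged from 478 to 746. The counts are also given without hemin DMSO replicate 2 or mock nilotinib replicate 3 where the comparison includes them. For nilotinib in each setting and for hemin alone, they are also given without replicate 1 of those groups. Shares of all genes called are given for the fit of all 12 libraries only. A general shift in calls without a library is therefore not shown.

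Per length, SCD, which desaturates stearate, was the highest member in mock DMSO cells at 167 ± 9.39 FPKM (SD, n = 3). INSIG1 (85.1 ± 8.62), the fatty acid synthase gene FASN (83.1 ± 7.80), the desaturase gene FADS1 (71.6 ± 8.66) and SREBF2 (64.6 ± 5.47) followed. INSIG1 and FASN did not differ beyond their spread. SC5D, a late sterol desaturase, was the lowest at 2.82 ± 0.138 FPKM, next to CYP51A1, the lanosterol demethylase (3.46 ± 0.515), FADS2 (3.55 ± 0.162) and HSD17B7 (3.65 ± 0.275), and the last 3 did not differ beyond their spread. In mock nilotinib cells SCD stood at 58.0 FPKM, and the highest means, INSIG1 (86.9 ± 26.7), SREBF2 (77.5 ± 22.1) and FASN (70.4 ± 5.37), did not differ beyond their spread. In hemin nilotinib cells INSIG1 had the highest mean at 112 ± 5.70. In hemin DMSO cells SCD had the highest mean at 83.9 ± 29.3, with libraries from 63.5 to 117, while INSIG1 stood at 35.4.

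**Figure D1:**
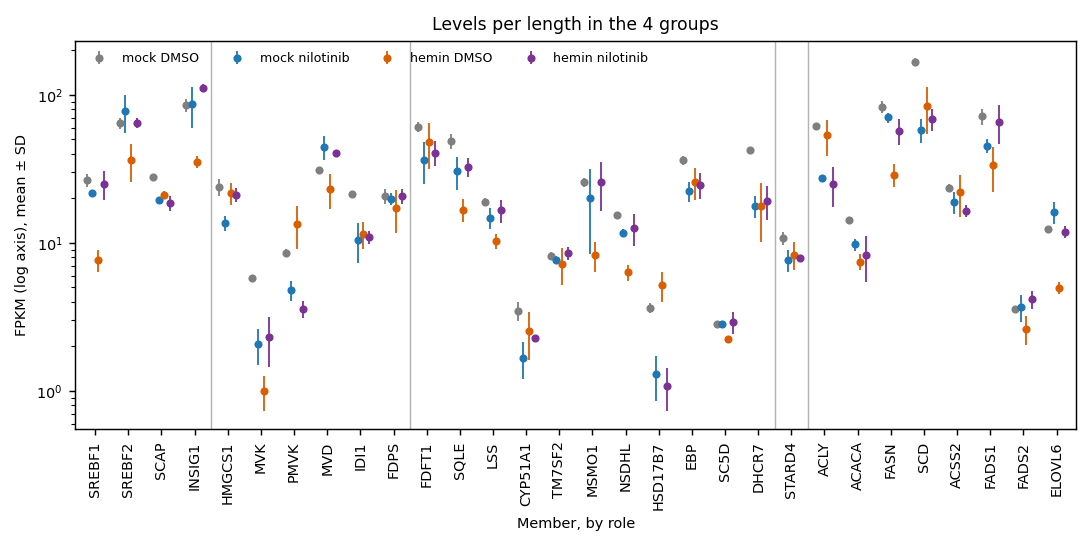
Mean FPKM (log axis, level per length) with the SD of 3 libraries for each of the 30 members in the 4 groups, ordered by role from the regulators on the left to fatty acid synthesis on the right. SCD was the highest in mock DMSO at 167 FPKM, and MVK ran from 5.83 FPKM in mock DMSO to 0.993 in hemin DMSO.

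In edgeR's quasi-likelihood F-test (Benjamini-Hochberg adjusted over all genes, threshold 0.05), nilotinib in mock cells was followed by lower levels of 16 members, higher levels of 2 and no call for 12. The lower calls made up 53.3% of the members, against 21.8% of all genes tested, and the higher calls 6.67%, against 20.7%. The median log2 fold change of the members was -0.51, and that of all genes was 0.0039. Without mock nilotinib replicate 3, 16 members were lower, 0 higher and the median was -0.57. Without mock nilotinib replicate 1, 14 were lower, 2 higher and the median was -0.48. With hemin, the balance was on the other side: nilotinib against DMSO gave 14 members higher (46.7%, against 32.4% of all genes), 3 lower (10%, against 31.8%) and 13 not called, with a median of 0.30, against 0.022 over all genes. Without hemin DMSO replicate 2, 17 were higher and the median was 0.53. Without hemin DMSO replicate 1, 14 were higher, 4 lower and the median was 0.16.

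Hemin without nilotinib was followed by lower levels of 20 members (66.7%, against 27.8% of all genes). PMVK alone was called higher (3.33%, against 25.7%) and 9 were not called, with a median log2 fold change of -0.69 against -0.047 over all genes. Without hemin DMSO replicate 2, 26 were lower. Without hemin DMSO replicate 1, 16 were lower and the median was -0.56. The falls of STARD4, FADS2, MVD and EBP were lost in 10, 8, 7 and 3 of 17 alternative fits. The rise of PMVK was lost in 6 of 17. The 20 lower calls outnumbered the 16 with nilotinib in mock cells. With DESeq2 these counts were 17 and 17, and in the 6 libraries of each comparison alone they were 19 and 20. In cells given nilotinib, hemin moved 1 member past the threshold, HMGCS1 (3.33% higher, against 3.52% of all genes), and none lower (against 2.28% of all genes), and the median was 0.12 against 0.026. At an unadjusted p under 0.05, edgeR gave 3 members higher and 1 lower there, and DESeq2 called 1 lower, ELOVL6. Without mock nilotinib replicate 3, 0 members were called in either direction by edgeR and the median was 0.19. A fit of those 6 libraries with the replicate number as a block, which pairs the libraries of these 2 groups, called 3 members higher, HMGCS1, MSMO1 and FADS1, and the same 6 libraries without the block called 0. The response to nilotinib with hemin was more positive than without it (the interaction) for 16 members (53.3%, against 17.1% of all genes) and more negative for 1 (3.33%, against 13%), with a median difference of 0.78 against 0.063 over all genes. All of these comparisons share libraries, so the counts are not independent of one another. Without hemin DMSO replicate 2, 22 members had a more positive response, and without mock nilotinib replicate 3, 18 did, with a median of 0.91. With DESeq2, or without mock DMSO replicate 1, 15 did.

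**Figure D2:**
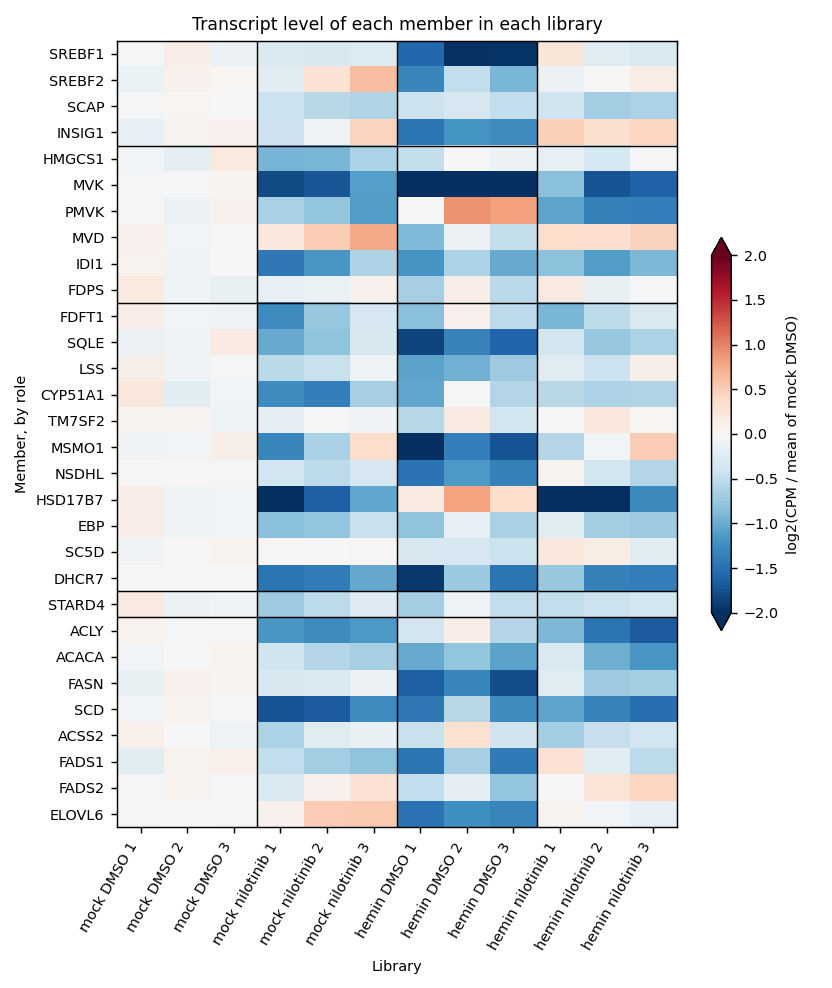
Each square is log2 of the CPM of 1 member in 1 of the 12 libraries over the mean of the 3 mock DMSO libraries, with blue lower, red higher and the scale capped at -2 and 2, and black lines between groups and between roles. Most of the hemin DMSO columns are blue, the hemin nilotinib columns are mixed, and hemin DMSO replicate 2 was the highest of its group for 27 of 30 members.

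As a share of their mean in mock DMSO cells, the members stood at a median of 70.4% in mock nilotinib, 62.5% in hemin DMSO and 72.4% in hemin nilotinib. The range was 34.6% (SCD) to 143% (MVD) in mock nilotinib, 16.7% (MVK) to 153% (PMVK) in hemin DMSO and 29.8% (HSD17B7) to 133% (INSIG1) in hemin nilotinib. Below 50% of the mock DMSO level were 7, 11 and 6 members in those 3 groups, and above 100% of it 6, 2 and 8 members.

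**Figure D3:**
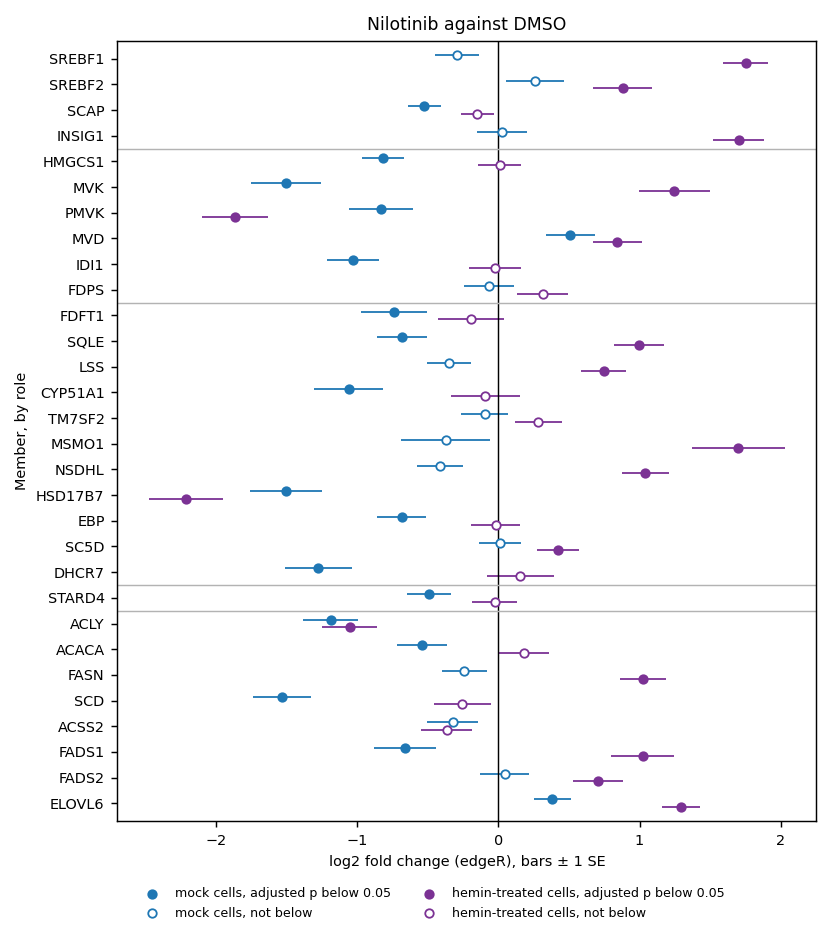
Log2 fold change of nilotinib against DMSO in mock cells (blue) and in hemin-treated cells (purple) for the 30 members, by role, with bars of 1 SE and filled points for an adjusted p below 0.05. The purple points lie right of the blue ones for most members, by 2.75 for MVK, 2.07 for MSMO1 and 2.05 for SREBF1. They lie to the left for PMVK, by -1.03, and for HSD17B7 and ACSS2, by -0.71 and -0.043, where the interaction was not called.

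Among the regulators, in the fit of all 12 libraries, SCAP was the one called with nilotinib in mock cells. SREBF1, SREBF2 and INSIG1 were called with nilotinib under hemin. SREBF1, which encodes SREBP-1, stood at 210, 237 and 199 CPM in mock DMSO, 176, 173 and 178 in mock nilotinib, 72.8, 54.8 and 55.3 in hemin DMSO and 256, 187 and 174 in hemin nilotinib. The 3 hemin DMSO libraries were the lowest of the 12. Nilotinib in hemin-treated cells raised it 3.37-fold (log2 1.75 ± 0.16, SE, adjusted p = 1.22e-07, edgeR), hemin without nilotinib lowered it (log2 -1.82 ± 0.16, adjusted p = 2.02e-07, edgeR), and nilotinib without hemin gave -0.29 ± 0.16 (adjusted p = 0.138, edgeR). That last value was called lower in the 6 libraries alone (-0.29, adjusted p = 0.0165, edgeR) and with the replicate block there (-0.29, adjusted p = 0.0132, edgeR). The interaction was 2.05 ± 0.22 (adjusted p = 1.31e-05, edgeR). SREBF1 shares 6.92% of its exon length with RAI1 on the other strand, and strandedness of the counting is not given in the sources used here.

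INSIG1 stood at 280, 329 and 335 CPM in mock DMSO, 235, 299 and 427 in mock nilotinib, 115, 138 and 131 in hemin DMSO and 437, 394 and 422 in hemin nilotinib. The hemin DMSO libraries lay below all others, and in mock nilotinib the 3 libraries spread across the mock DMSO values. The log2 fold change of nilotinib was 1.70 ± 0.18 with hemin (adjusted p = 6.17e-07, edgeR) and 0.027 ± 0.18 without it (adjusted p = 0.916, edgeR). Hemin without nilotinib gave -1.29 ± 0.18 (adjusted p = 1.84e-05, edgeR), and the interaction was 1.68 ± 0.25 (adjusted p = 0.000176, edgeR).

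SREBF2 stood at 451, 525 and 506 CPM in mock DMSO, 420, 601 and 755 in mock nilotinib, 199, 353 and 263 in hemin DMSO and 454, 499 and 546 in hemin nilotinib. Nilotinib under hemin raised it by 0.88 ± 0.21 (adjusted p = 0.00165, edgeR), with -0.86 ± 0.21 for hemin without nilotinib (adjusted p = 0.00248, edgeR). The interaction was 0.62 ± 0.29 (adjusted p = 0.124, edgeR), and it passed without mock nilotinib replicate 3 (0.86, adjusted p = 0.043) or hemin DMSO replicate 2 (0.85, adjusted p = 0.0343). It also passed with the replicate block in the 12 libraries (0.68, adjusted p = 0.0345), when every gene with a count was kept (0.69, adjusted p = 0.0155) and without composition factors (0.84, adjusted p = 0.0278). SCAP, the escort of SREBP, stood at 178, 185 and 180 CPM in mock DMSO, 135, 123 and 120 in mock nilotinib, 134, 143 and 128 in hemin DMSO and 138, 111 and 117 in hemin nilotinib. All 9 libraries given nilotinib or hemin lay below the 3 mock DMSO libraries, with a log2 fold change of -0.52 ± 0.12 for nilotinib (adjusted p = 0.00202, edgeR) and -0.42 ± 0.12 for hemin (adjusted p = 0.00699, edgeR). None of the 4 regulators was called in hemin with nilotinib, where the log2 fold changes ran from -0.24 to 0.38.

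Of the 6 mevalonate genes, nilotinib without hemin lowered 4 (66.7%, against 21.8% of all genes) and raised 1 (16.7%, against 20.7%). With hemin it raised 2 (33.3%, near the 32.4% of all genes) and lowered 1 (16.7%, against 31.8%). MVK, which phosphorylates mevalonate, stood at 37.7, 37.3 and 39.7 CPM in mock DMSO, 11.1, 11.7 and 17.8 in mock nilotinib, 4.50, 7.75 and 6.90 in hemin DMSO and 21.5, 11.6 and 12.4 in hemin nilotinib. Either treatment alone brought it below every mock DMSO library, and the hemin nilotinib libraries lay above the hemin DMSO ones. The fold change of nilotinib was thus negative without hemin (log2 -1.5 ± 0.25, adjusted p = 0.000133, edgeR) and positive with it (1.25 ± 0.25, adjusted p = 0.000432, edgeR), and the interaction of 2.75 ± 0.35 (adjusted p = 5.37e-05, edgeR) was the largest of the 30. Hemin without nilotinib gave -2.58 ± 0.26 (adjusted p = 8.01e-07, edgeR).

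PMVK, the next kinase of the pathway, fell with nilotinib in mock cells as MVK did, and also fell with nilotinib under hemin, where MVK rose. It stood at 11.3, 10.2 and 11.7 CPM in mock DMSO, 7.05, 6.48 and 5.10 in mock nilotinib, 10.8, 20.6 and 19.6 in hemin DMSO and 5.35, 4.34 and 4.30 in hemin nilotinib. In hemin DMSO, replicate 1 lay among the mock DMSO values and the other 2 lay above all of them, with a group mean at 153% of that of mock DMSO. Nilotinib lowered it without hemin (log2 -0.83 ± 0.23, adjusted p = 0.00695, edgeR) and with it (-1.87 ± 0.23, adjusted p = 3.45e-06, edgeR), and hemin without nilotinib raised it by 0.62 ± 0.22 (adjusted p = 0.027, edgeR), a call lost when hemin DMSO replicate 2 (adjusted p = 0.121), hemin DMSO replicate 3 (0.102) or any mock DMSO replicate (0.067 to 0.0988) was left out. Its interaction was -1.03 ± 0.32 (adjusted p = 0.0228, edgeR).

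MVD, which decarboxylates the pathway's diphosphate, stood at 158, 143 and 146 CPM in mock DMSO, 173, 211 and 251 in mock nilotinib, 80.6, 137 and 107 in hemin DMSO and 191, 187 and 205 in hemin nilotinib. Nilotinib raised it without hemin (log2 0.51 ± 0.17, adjusted p = 0.024, edgeR) and with it (0.84 ± 0.17, adjusted p = 0.000465, edgeR). The first call was lost without any 1 mock DMSO replicate or without mock nilotinib replicate 2 or 3, at an adjusted p of 0.0567 to 0.169. HMGCS1, which makes HMG-CoA from acetyl-CoA units, stood at 110, 101 and 131 CPM in mock DMSO, 60.3, 61.0 and 73.6 in mock nilotinib, 81.9, 114 and 106 in hemin DMSO and 102, 89.3 and 113 in hemin nilotinib. The mock nilotinib libraries were the lowest. It was the member called in hemin with nilotinib, at 0.64 ± 0.15 (adjusted p = 0.0232, edgeR), a call lost without mock nilotinib replicate 1, 2 or 3 (adjusted p = 0.0673, 0.133 and 0.0589) or without hemin nilotinib replicate 2 or 3 (0.0512 and 0.0669). IDI1, the isomerase, fell by 1.03 on the log2 scale with nilotinib alone and by 0.92 with hemin alone, and did not pass the test with nilotinib in hemin-treated cells (-0.022 ± 0.18). FDPS, which makes farnesyl diphosphate, was not called in any comparison by edgeR with TMM. Without composition factors it was called with nilotinib under hemin (0.51, adjusted p = 0.0166) and with hemin alone (-0.57, adjusted p = 0.0097), and hemin alone was also called when every gene with a count was kept (adjusted p = 0.0469). Without hemin DMSO replicate 2, nilotinib under hemin gave 0.61 (adjusted p = 0.00228) and hemin alone -0.60 (adjusted p = 0.00326). On the other strand, FDPS, HMGCS1 and IDI1 share 18.6%, 14.9% and 14.8% of their exon length with RUSC1-AS1, AC114947.2 and IDI2-AS1.

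**Figure D4:**
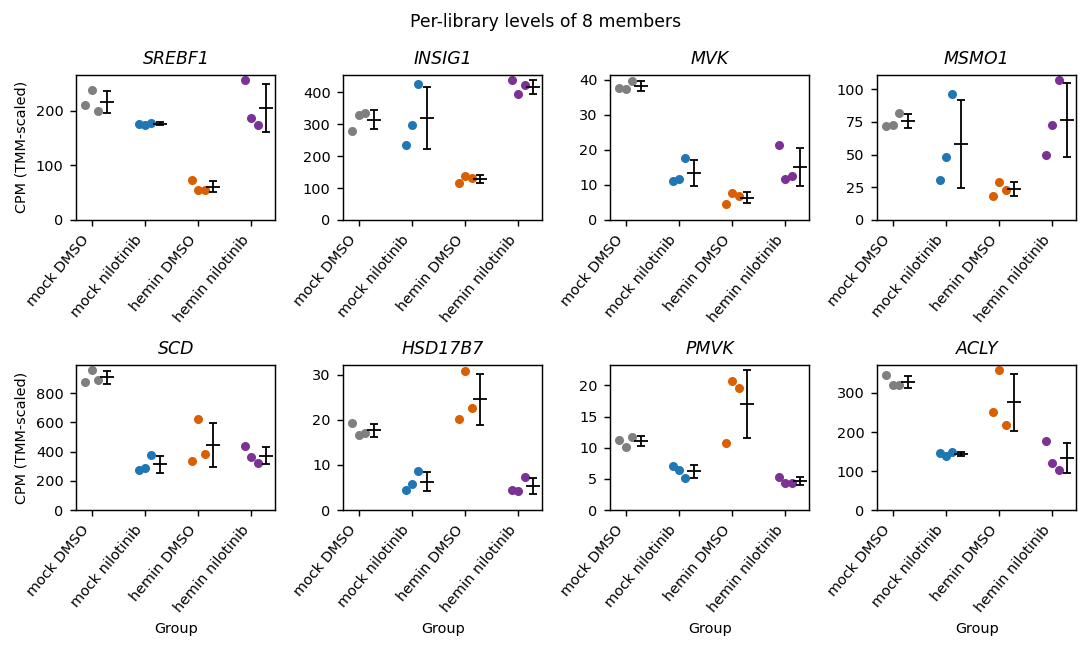
CPM (linear axes from 0) of 8 members in the 12 libraries, 1 point a library, with the mean and SD of each group of 3 in black. SREBF1, INSIG1, MVK and MSMO1 lie lowest in hemin DMSO, while HSD17B7 and PMVK lie lowest in hemin nilotinib by group mean.

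Of the 11 genes from squalene to cholesterol, nilotinib without hemin lowered 6 by edgeR (54.5%, against 21.8% of all genes). It raised 0 there (against 20.7% of all genes), and 0 at an unadjusted p under 0.05. With hemin it raised 5 (45.5%, against 32.4%) and lowered 1 (9.09%, against 31.8%). MSMO1, the methyl sterol oxidase, stood at 72.1, 72.7 and 81.7 CPM in mock DMSO, 30.7, 48.2 and 96.1 in mock nilotinib, 18.7, 29.3 and 22.7 in hemin DMSO and 50.1, 72.6 and 107 in hemin nilotinib. The 3 libraries spread widely in both nilotinib groups, and replicate 3 was the highest in both. Nilotinib raised MSMO1 by a log2 of 1.70 ± 0.33 with hemin (adjusted p = 0.00028, edgeR) and gave -0.37 ± 0.32 without it (adjusted p = 0.364, edgeR). Without mock nilotinib replicate 3, the second value was -0.96 and called (adjusted p = 0.0105). Hemin without nilotinib lowered it (log2 -1.68 ± 0.33, adjusted p = 0.000434, edgeR), and the interaction was 2.07 ± 0.45 (adjusted p = 0.00314, edgeR).

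HSD17B7, a ketosteroid reductase of the same demethylation step, behaved unlike its neighbours. It stood at 19.4, 16.6 and 17.1 CPM in mock DMSO, 4.46, 5.69 and 8.56 in mock nilotinib, 20.1, 30.8 and 22.7 in hemin DMSO and 4.37, 4.15 and 7.29 in hemin nilotinib. Every nilotinib library lay below every DMSO library, at log2 -1.51 ± 0.26 without hemin (adjusted p = 0.000176, edgeR) and -2.21 ± 0.26 with it (adjusted p = 1.97e-06, edgeR). Hemin without nilotinib gave 0.47 ± 0.25 (adjusted p = 0.117, edgeR), with no overlap between the libraries. That rise was called in the 6 libraries alone (0.51, adjusted p = 0.0163, edgeR) and with the replicate block there (0.49, adjusted p = 0.00593, edgeR). The interaction was -0.71 ± 0.36 (adjusted p = 0.145, edgeR), and without hemin nilotinib replicate 3 it was -0.98 (adjusted p = 0.0299). Of its 150-base words, 1.68% also occur in HSD17B7P2.

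SQLE, the squalene epoxidase, fell with nilotinib alone (log2 -0.69 ± 0.18, adjusted p = 0.00514, edgeR) and rose with nilotinib in hemin-treated cells (0.996 ± 0.18, adjusted p = 0.000146, edgeR), as MVK and FADS1 did. LSS, the lanosterol synthase, and NSDHL, the partner of HSD17B7 in demethylation, rose with nilotinib under hemin by 0.74 and 1.04 and gave -0.35 and -0.41 without it, neither of which passed in the edgeR fit with TMM (adjusted p = 0.0789 and 0.0503). NSDHL was called lower there by DESeq2 (adjusted p = 0.0493), without composition factors (0.0299), under the stricter filter (0.0467), in the 6 libraries alone (0.00285) and with the replicate block in those 6 (0.00467). LSS was called lower with the replicate block in the 12 libraries (0.0301) or in the 6 (0.0172), in the 6 libraries alone (0.0218) and without mock nilotinib replicate 3 (-0.52, adjusted p = 0.0228). LSS shares 7.88% of its exon length with genes on the other strand. SC5D rose by 0.42 with nilotinib under hemin (adjusted p = 0.0215, edgeR), a call lost without hemin DMSO replicate 3 (0.0683), hemin nilotinib replicate 1 (0.0635) or hemin nilotinib replicate 2 (0.0806). It was also lost when every gene with a count was kept (0.0512), with limma on FPKM (0.0609 and 0.0567), in the 6 libraries alone (0.0827) and with the replicate block there (0.0967). FDFT1, the squalene synthase, CYP51A1, EBP, the sterol isomerase, and DHCR7, the reductase of 7-dehydrocholesterol, fell with nilotinib alone by 0.74, 1.06, 0.68 and 1.28 on the log2 scale and were not called with nilotinib under hemin (-0.19 to 0.16). The fall of FDFT1 was not called without mock nilotinib replicate 1 (adjusted p = 0.0914), and without hemin DMSO replicate 2 DHCR7 was called under hemin, at 0.54 (adjusted p = 0.0305). TM7SF2, a sterol reductase, was not called in any comparison by edgeR with TMM. Without composition factors it was called with nilotinib under hemin (0.47, adjusted p = 0.0154), with hemin alone (-0.47, adjusted p = 0.0195) and in the interaction (0.60, adjusted p = 0.0494). Without hemin DMSO replicate 2 it was at 0.53 with nilotinib under hemin (adjusted p = 0.00507) and -0.45 with hemin alone (adjusted p = 0.0155). CYP51A1 shares 79.3% of its exon length with AC000120.2 and AC000120.3 on its own strand and 75.4% of its 150-base words with other transcripts, so reads could be split between them and its values are uncertain. STARD4, which moves cholesterol between membranes, fell by 0.49 with nilotinib alone and by 0.40 with hemin alone. The first call was lost without mock DMSO replicate 1 (adjusted p = 0.0624) or mock nilotinib replicate 1 or 2 (0.0956 and 0.0511), and the second without mock DMSO replicate 1 (0.0907) or hemin DMSO replicate 1 or 3 (0.181 and 0.138). The second was also lost with DESeq2 (0.0732), RLE factors (0.0665), upper-quartile factors (0.145), the stricter filter (0.0567), limma on FPKM (0.0642 and 0.0617) and the 6 libraries alone (0.0552), and the first with upper-quartile factors (0.0669).

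Of the 8 genes of fatty acid synthesis, nilotinib without hemin lowered 4 (50%, against 21.8% of all genes) and raised 1 (12.5%, against 20.7%). With hemin it raised 4 (50%, against 32.4%) and lowered 1 (12.5%, against 31.8%). SCD stood at 874, 959 and 892 CPM in mock DMSO, 275, 288 and 379 in mock nilotinib, 336, 620 and 382 in hemin DMSO and 439, 361 and 321 in hemin nilotinib. All 9 treated libraries lay below the mock DMSO ones. Its fall with nilotinib alone (log2 -1.53 ± 0.21, adjusted p = 2.02e-05, edgeR) was within 1 SE of those of HSD17B7 (-1.51 ± 0.26) and MVK (-1.5 ± 0.25), and nilotinib under hemin gave -0.26 ± 0.20 (adjusted p = 0.28, edgeR), with an interaction of 1.28 ± 0.29 (adjusted p = 0.00377, edgeR).

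ACLY, which splits citrate into acetyl-CoA for both pathways, stood at 346, 319 and 319 CPM in mock DMSO, 147, 137 and 148 in mock nilotinib, 251, 359 and 218 in hemin DMSO and 177, 120 and 103 in hemin nilotinib. The 6 nilotinib libraries lay below the 6 DMSO libraries. The log2 fold change of nilotinib was -1.19 ± 0.19 without hemin (adjusted p = 0.000129, edgeR) and -1.05 ± 0.19 with it (adjusted p = 0.000189, edgeR), with an interaction of 0.13 ± 0.27 (adjusted p = 0.746, edgeR). ACLY, PMVK and HSD17B7 were the members called lower with nilotinib in both settings. ACSS2, which makes acetyl-CoA from acetate, was not called in any comparison by edgeR with TMM in the 12 libraries. With nilotinib in mock cells it was called lower in the 6 libraries alone (-0.32, adjusted p = 0.0374) and with the replicate block there (-0.33, adjusted p = 0.0381). Without hemin DMSO replicate 2, hemin alone gave -0.41 (adjusted p = 0.0327), and without hemin DMSO replicate 1 or 3, nilotinib under hemin gave -0.50 and -0.49 (adjusted p = 0.034 and 0.0454).

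ELOVL6, which elongates palmitate, stood at 92.7, 90.4 and 90.01 CPM in mock DMSO, 96.1, 129 and 131 in mock nilotinib, 32.8, 39.1 and 36.5 in hemin DMSO and 96.0, 88.0 and 81.4 in hemin nilotinib. The hemin DMSO libraries stood apart from the other 9, and nilotinib raised ELOVL6 by 1.29 ± 0.14 under hemin (adjusted p = 5.73e-07, edgeR). Its rise without hemin, 0.38 ± 0.13 (adjusted p = 0.0285, edgeR), was lost without any 1 mock DMSO replicate or without mock nilotinib replicate 2 or 3, at an adjusted p of 0.0901 to 0.183. FASN fell by 1.55 with hemin alone and rose by 1.02 with nilotinib under hemin. FADS1 fell by 0.66 with nilotinib alone (adjusted p = 0.0236, edgeR) and rose by 1.02 under hemin, and it shares 4.79% of its exon length with FADS2 on the other strand. FADS2 rose by 0.71 with nilotinib under hemin, and ACACA, which makes malonyl-CoA, fell by 0.54 with nilotinib alone and by 0.95 with hemin alone. The falls of FADS1 and ACACA with nilotinib alone were each lost without mock DMSO replicate 2 or 3 or mock nilotinib replicate 2 or 3, at adjusted p of 0.0635 to 0.077 for FADS1 and 0.054 to 0.0754 for ACACA.

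**Figure D5:**
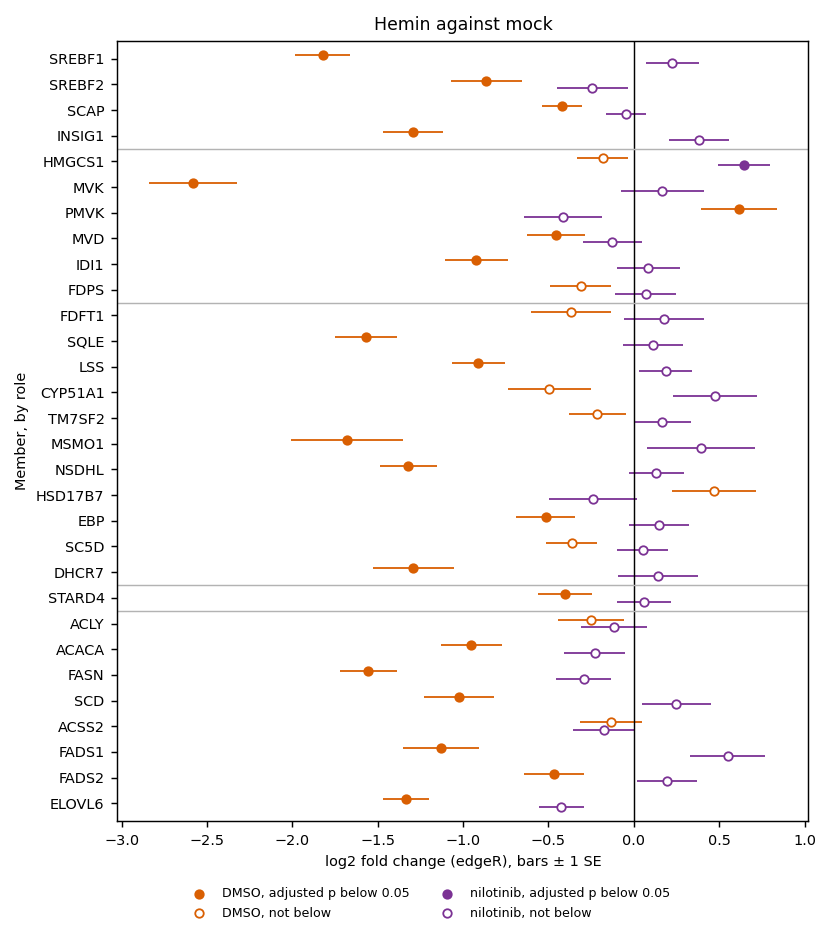
Log2 fold change of hemin against mock in DMSO cells (orange) and in nilotinib cells (purple) for the 30 members, by role, with bars of 1 SE and filled points for an adjusted p below 0.05. In DMSO cells 20 members were lower, down to -2.58 for MVK, and in nilotinib cells the values ran from -0.42 to 0.64 with 1 filled point, HMGCS1.

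Other genes of these pathways, which are not members, were read from 4 lists, whose counts stand beside 20.7% of all genes higher and 21.8% lower with nilotinib without hemin, and 32.4% and 31.8% with it. Nothing particular to the lists is read from these counts. Of 19 tested genes of sterol regulation and the isoprenoid branch, nilotinib lowered 11 and raised 1 without hemin, and raised 5 and lowered 7 with it, with medians of -0.59 and -0.11 on the log2 scale. FAXDC2, a fatty acid hydroxylase domain protein, was the one that rose in mock cells, from 79.3, 122 and 119 CPM in mock DMSO to 564, 647 and 701 in mock nilotinib (log2 2.58 ± 0.17, adjusted p = 7.4e-09, edgeR), and it rose by 4.003 ± 0.18 with hemin (adjusted p = 8.11e-11, edgeR). PDSS1, of coenzyme Q synthesis, was the largest fall without hemin, at -1.29 ± 0.35, and NUS1, of dolichol synthesis, the largest with hemin, at -1.30 ± 0.16. Of 14 tested genes of sterol storage, trafficking and efflux, 4 were higher and 5 lower without hemin and 3 higher and 6 lower with it. OSBP2, an oxysterol-binding protein, rose by 2.02 and 3.09, SCARB1, the HDL receptor, fell by 1.16 without hemin, and STARD3NL fell by 1.63 with it. Of 31 tested genes of fatty acid supply and elongation, 4 were higher and 14 lower without hemin and 9 higher and 13 lower with it. ELOVL1 rose by 0.94 and ACSL4 fell by 1.44 without hemin. With hemin DGAT2, an enzyme of triglyceride synthesis, rose by 1.56, and ME1, the cytosolic malic enzyme, fell by 3.01, from 308, 294 and 224 CPM in hemin DMSO to 21.8, 40.6 and 39.8 in hemin nilotinib.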

How the data were processed

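RNA of K562 cells was sequenced as 150-base paired-end reads in 12 libraries, 3 for each of 4 groups, and the groups were taken from the labels. The authors deposited raw read counts per gene without normalization, and FPKM per gene. Genome build GRCh38.p12, DESeq and DESeq2 are named in the submitters' processing notes, while the aligner and counter are not given in the sources used here. All 58735 gene identifiers, with their starts and ends, matched GENCODE 29. The deposited FPKM follow DESeq2 size factors rather than library totals, so they are no independent scaling. A table of mean FPKM per group was not used.

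Counts were fitted in R 4.3.3 with edgeR 4.0.16 (filterByExpr with a minimum count of 10 and a minimum total of 15, TMM, quasi-likelihood, 1 mean per group over the 12 libraries). Tests were two-sided with Benjamini-Hochberg adjustment over 20821 genes. An exact permutation test of 3 against 3 libraries cannot go below p = 0.1 and was not used. Replicates differed by more than sampling noise (chi-square per degree of freedom of 13.6 to 249, Pearson r across genes of 0.978 to 0.998). Deviations of same-numbered libraries correlated above 0.1 in all 3 pairs between mock nilotinib and hemin nilotinib only (0.199 to 0.263). The replicate numbers from the labels were therefore taken to pair those libraries, though the main fit had no replicate block. The correlations were 0.0869 to 0.0989 for nilotinib without hemin and 0.0849 to 0.104 for hemin without nilotinib, close to that cutoff. They were -0.00712 to 0.235 for nilotinib with hemin.

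Per-library values are given for the called members with the 3 largest rises and the 3 largest falls of each comparison (mean of at least 100 counts, no overlap between the groups), the 3 largest interactions each way, and the 4 regulators. The members and lists were chosen with earlier results of these data known. Alternatives were DESeq2 1.42.0, other scalings, other filters, limma 3.58.1 on log2(FPKM + 1) and log2(FPKM + 0.1), 6 libraries alone, the replicate block, and each library left out. The procedures were tested on simulated data. Positions, overlaps and promoters were read in Python with pandas. The result of 1 single gene of the oxidation list is not reported here, though the counts of that list include it.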

Additional observations from a re-analysis of the deposited data

Results flagged for a closer look

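For 17 members the response to nilotinib with hemin differed from that without it, by edgeR's interaction term (log2 difference, hemin-treated minus mock cells, ± SE, adjusted over all genes). By the sampling times in the study's methods, these differences cannot be told apart from the longer time in nilotinib. Among the regulators the response was more positive for SREBF1 by 2.05 ± 0.22 (adjusted p = 1.31e-05) and INSIG1 by 1.68 ± 0.25 (adjusted p = 0.000176). Among the mevalonate genes it was more positive for MVK by 2.75 ± 0.35 (adjusted p = 5.37e-05), IDI1 by 1.01 ± 0.26 (adjusted p = 0.00867) and HMGCS1 by 0.83 ± 0.21 (adjusted p = 0.00859). PMVK was the member with a more negative response under hemin, at -1.03 ± 0.32 (adjusted p = 0.0228). Among the sterol genes the response was more positive for MSMO1 by 2.07 ± 0.45 (adjusted p = 0.00314), SQLE by 1.68 ± 0.25 (adjusted p = 0.000182), NSDHL by 1.45 ± 0.23 (adjusted p = 0.000292), DHCR7 by 1.43 ± 0.33 (adjusted p = 0.00462), LSS by 1.10 ± 0.22 (adjusted p = 0.00173) and CYP51A1 by 0.97 ± 0.34 (adjusted p = 0.0435). Among the fatty acid genes it was more positive for FADS1 by 1.68 ± 0.31 (adjusted p = 0.001), SCD by 1.28 ± 0.29 (adjusted p = 0.00377), FASN by 1.26 ± 0.23 (adjusted p = 0.000843), ELOVL6 by 0.91 ± 0.19 (adjusted p = 0.00216) and ACACA by 0.72 ± 0.25 (adjusted p = 0.0395). The calls of PMVK, CYP51A1 and ACACA were lost in 8, 11 and 12 of the alternatives. EBP and FADS2, each at 0.66 (adjusted p = 0.0515 and 0.0537, edgeR), were not called here and passed in 6 of 21 alternatives each. SREBF2 passed in 5 of them.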

How the results depend on the processing

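Of 2670 gene-level values under the alternatives, 2487 kept their side of the threshold, 80 gained a call, 103 lost one and 0 changed sign with a call. The members called lower with nilotinib in mock cells ran from 13 to 21, those called higher with nilotinib under hemin from 13 to 17, those called lower with hemin alone from 16 to 27 and those with a more positive interaction from 14 to 23. The cause of the changes below was not tested. Members called higher with nilotinib in mock cells were 1 when the filter kept every gene with a count and 0 to 2 with 1 library left out. The median with nilotinib under hemin was 0.49 without composition factors and 0.16 to 0.53 with 1 library left out. Members called higher with hemin alone were 0 without composition factors, 2 in the 6 libraries alone, 2 with the replicate block in those 6, and 0 to 1 with 1 library left out. With hemin in nilotinib cells, the members called higher were 2 over all genes with at least 1 count, 0 in the 6 libraries alone, 3 with the replicate block there and 0 to 1 with 1 library left out, those called lower were 1 with DESeq2, 1 without composition factors and 0 to 2 with 1 library left out, and the median was -0.026 without hemin nilotinib replicate 1. The interaction gave 0 members lower and a median of 0.98 without composition factors, and 0 to 2 lower with 1 library left out. Without composition factors the median of all genes shifted by 0.18 with nilotinib under hemin, -0.24 with hemin alone and 0.21 in the interaction, and upper-quartile factors shifted it by 0.11 with nilotinib alone, 0.12 with hemin alone and -0.12 in the interaction. The share of higher calls over all genes went from 48.0% to 33.9% with hemin alone, from 60.7% to 49.2% with hemin in nilotinib cells and from 56.7% to 73.3% in the interaction without composition factors, and to 46.3% in the interaction with upper-quartile factors. Of 192 companion counts, 21 moved by over 1.5 times. With 3 libraries a group and a biological coefficient of variation of 0.198, small changes may be missed. Low members such as MVK, HSD17B7, PMVK and CYP51A1 rest on fewer counts, with 147, 151, 158 and 167 in their lowest library.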

Other observations

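Fatty acid oxidation, the route that breaks down what the members build, was read from a list of 19 tested genes. With nilotinib in mock cells 7 were higher and 0 lower by edgeR, against 20.7% and 21.8% of all genes, with a median log2 fold change of 0.16. At an unadjusted p under 0.05, 1 was lower, and DESeq2 called 0 lower. With nilotinib under hemin 4 were higher and 6 lower, against 32.4% and 31.8% of all genes, with a median of -0.023. ACADS, the short-chain acyl-CoA dehydrogenase, stood at 31.2, 28.8 and 26.6 CPM in mock DMSO, 73.2, 95.3 and 84.0 in mock nilotinib, 16.9, 23.2 and 14.8 in hemin DMSO and 60.6, 73.9 and 63.9 in hemin nilotinib, and every nilotinib library lay above every DMSO library. Its log2 fold change was 1.54 ± 0.16 without hemin and 1.86 ± 0.17 with it.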
